A study of Mus musculus with 16 samples.

Results

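The SNARE fusion machinery of neurons was examined in mitral cells, which carry odour signals out of the olfactory bulb, through 8 genes: Snap25, Stx1a, Vamp1, Vamp2, Cplx1, Cplx2, Nsf and Napb. The genes were chosen by their role in vesicle fusion, with earlier results of these data known, and every probe whose RefSeq accession belonged to one of them was used. This gave 12 probes, 4 for Cplx2, 2 for Napb and 1 for each of the other genes, out of 55598 probes on the array, and all 8 genes were among the 12035 named genes that could be tested. Groups of ICR mice were compared, 4 in number and each with 4 pools of 10 cells: Kir2.1 cells at postnatal day 6 (P6), control cells at P6, Kir2.1 cells at postnatal day 3 (P3) and control cells at P3. Control cells had received pCAG-EYFP, and Kir2.1 cells pCAG-EYFP together with pCAG-Kir2.1, in both cases by electroporation in utero at embryonic day 12, so the surgery and the fluorescent protein were common to all groups. Kir2.1 is an inwardly rectifying potassium channel that makes neurons less excitable, and the series title describes these cells as silenced. The plasmids' promoter is not specific to mitral cells. Single cells were picked by hand for EYFP, each cell's cDNA was amplified by 30 cycles of PCR, and cells whose cDNA held EYFP and Pcdh21 (now Cdhr1, a mitral and tufted cell gene) were pooled, so Cdhr1 was part of how cells were chosen. Pools are called biological replicates in the labels, which give no number of animals, so a p-value here speaks of pool-to-pool spread that may be technical in part.

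Synaptic vesicles fuse when vesicle-borne synaptobrevin (Vamp1 or Vamp2) zips together with syntaxin 1 (Stx1a) and SNAP-25 (Snap25) of the plasma membrane into a tight bundle of helices. Complexins (Cplx1, Cplx2) bind the partly zipped bundle, hold it back and let calcium-bound synaptotagmin trigger the last step. After fusion the ATPase NSF (Nsf), docked through SNAP adaptors such as beta-SNAP (Napb), pulls the spent bundle apart so that its parts can be used again. Mitral cells release glutamate from their axons and also from their dendrites onto bulb interneurons, so the machinery works on both sides of the cell.

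Between 34.3% and 41.1% of the probes of an array were well above background. Of the 12 member probes, 11 were well above background on all 16 arrays, and the Vamp1 probe was on 15. A level is given on a log2 scale, on which a difference of 1 within a probe is 2-fold. On it 0 is the array's own 75th percentile over the 12103 probes well above background on every array. Where a gene had several probes, the brightest on average was tested for it. Of 8 mitral and tufted cell markers, 7 (Cdhr1, Tbx21, Eomes, Tbr1, Slc17a7, Slc17a6 and Reln) were above background in some pool of every group, Reln in only 1 of the 4 P6 control pools, and Lhx5 was above background nowhere. Markers of other cells were also above background, 12 of 14 interneuron genes in P6 control pools among them, so this count does not set the label apart from other cell types. All P6 arrays lay on slide 2 and all P3 arrays on slide 1, and slide and age therefore cannot be told apart. Within each slide the Kir2.1 pools lay in row 2 and the control pools in row 1, so row and treatment cannot be told apart either. In pooled cells, fewer cells with a transcript and less transcript per cell cannot be told apart.

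Start-site sequences are shown for Cplx1, Nsf and Napb, the 3 members other than Snap25 and Vamp1 with the largest mean differences between ages, and for Stx1a, whose differences were small. They run from 250 bases before to 50 bases after the annotated start, 5′ to 3′ on the gene's own strand, from RefSeq on GRCm38.p6, whose table held 6 of the 8 members. Capitals mark TGACG, the core of the cAMP response element, which is the binding motif of the activity-regulated factor CREB, on either strand.
Cplx1: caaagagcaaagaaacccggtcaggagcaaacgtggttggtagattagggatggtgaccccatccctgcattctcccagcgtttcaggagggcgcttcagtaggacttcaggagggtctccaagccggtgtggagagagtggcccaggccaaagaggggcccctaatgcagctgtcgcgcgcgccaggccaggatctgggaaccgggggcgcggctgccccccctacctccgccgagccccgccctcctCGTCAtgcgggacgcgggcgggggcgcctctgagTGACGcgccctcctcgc
Nsf: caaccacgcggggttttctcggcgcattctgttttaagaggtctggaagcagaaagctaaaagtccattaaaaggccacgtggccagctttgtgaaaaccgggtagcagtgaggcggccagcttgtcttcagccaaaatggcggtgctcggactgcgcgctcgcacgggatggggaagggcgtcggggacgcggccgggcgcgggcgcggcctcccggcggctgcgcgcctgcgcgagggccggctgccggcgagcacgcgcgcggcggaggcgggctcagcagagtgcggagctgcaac
Napb: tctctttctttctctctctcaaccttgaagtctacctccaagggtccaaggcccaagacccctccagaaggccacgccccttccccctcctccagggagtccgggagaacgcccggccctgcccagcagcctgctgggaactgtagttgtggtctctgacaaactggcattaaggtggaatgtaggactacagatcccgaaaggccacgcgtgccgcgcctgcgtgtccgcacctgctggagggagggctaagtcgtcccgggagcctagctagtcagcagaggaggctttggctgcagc
Stx1a: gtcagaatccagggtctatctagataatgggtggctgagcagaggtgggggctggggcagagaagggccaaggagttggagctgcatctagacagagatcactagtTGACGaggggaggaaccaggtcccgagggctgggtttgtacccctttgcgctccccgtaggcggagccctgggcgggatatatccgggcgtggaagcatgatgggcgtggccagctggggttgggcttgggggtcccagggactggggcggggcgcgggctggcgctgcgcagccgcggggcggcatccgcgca
The Cplx1 sequence (chr5:108549978-108550277, minus strand) held 2 such cores and the Stx1a sequence (chr5:135023232-135023531, plus strand) held 1. None was found in those of Nsf (chr11:103954007-103954306, minus strand), Napb (chr2:148732371-148732670, minus strand), Vamp1 or Cplx2. Among all 32851 promoter sequences of this length, 20.8% held a core. The full element TGACGTCA was in none of the 6 members and in 1.79% of all promoters. The GC box GGGCGG, on either strand, occurred 3 times in Stx1a, 2 times in Cplx1 and 1 time in Vamp1, and 35.7% of all promoters held it. No member held TATAAA, found in 13.6% of all promoters. These matches describe letters only.

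Across the comparisons, 1 of the 8 genes passed the test in 1 contrast: Snap25 was higher in P6 control cells than in P3 control cells. In that comparison 2.59% of all 21070 features tested were called in either direction (adjusted p under 0.05, limma with Benjamini-Hochberg adjustment over all features). For Kir2.1 against control, none of the 8 members passed at P6, where 1.76% of all features did, none at P3, where 0.00949% did, and none for the mean of both ages, where 0.712% did. None passed for P6 against P3 in Kir2.1 cells (0.878% of all features) or for the interaction of age and Kir2.1 (0.0902%). At an unadjusted p under 0.05 the limma fit gave 2 members for Kir2.1 against control at P6 (17.5% of all features), 2 at P3 (6.53%) and 0 for the mean of both ages (13.5%). It gave 3 for age in Kir2.1 cells (15%), 5 for age in control cells (17.9%) and 2 for the interaction (10.7%).

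**Figure D1:**
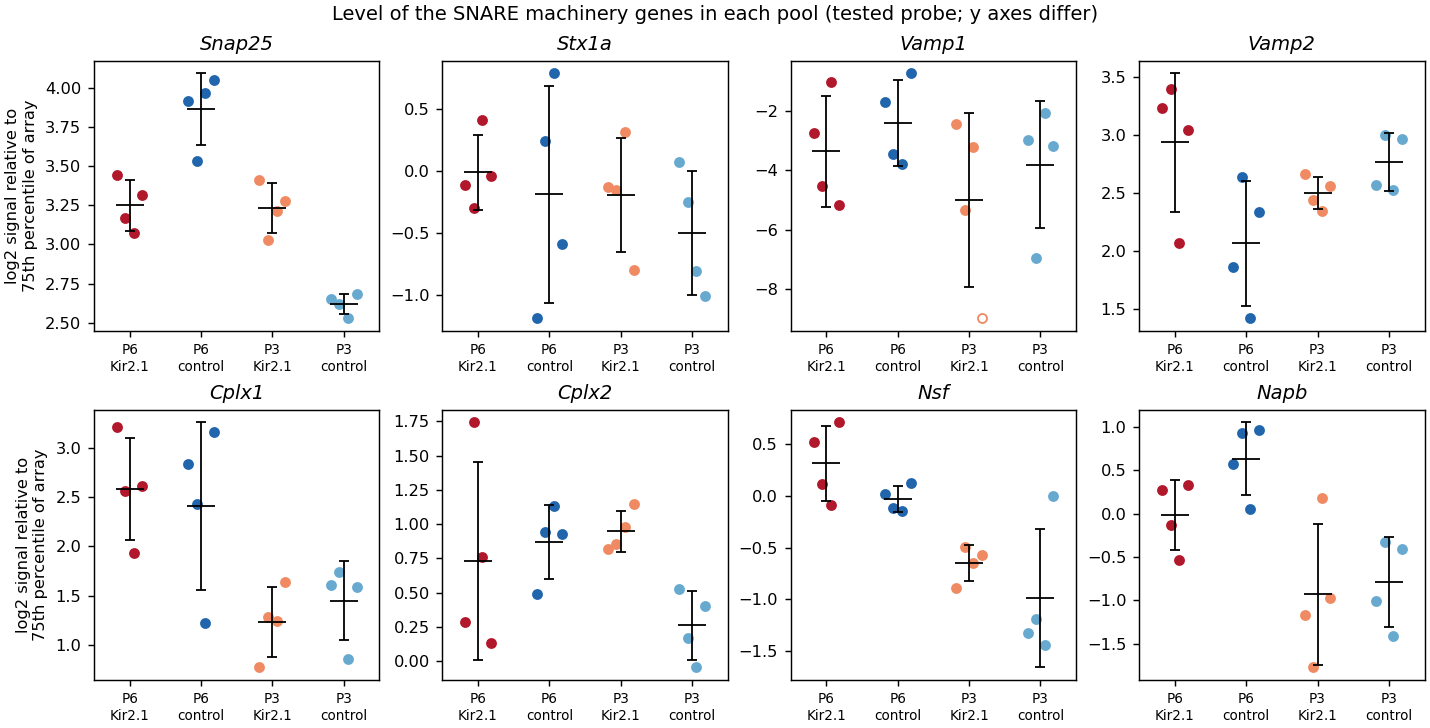
Log2 signal (y axis, a separate scale for each gene) in the 4 pools of each group (x axis). Signal is relative to the array's 75th percentile over probes well above background on all arrays. Black bars are the mean and SD. Filled points are well above background and the 1 open point, a Vamp1 pool of P3 Kir2.1 cells, is not. Snap25 had its 4 highest pools in P6 control cells and its 4 lowest in P3 control cells, with both Kir2.1 groups between them.

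Snap25 encodes the plasma membrane SNARE that contributes a pair of helices to the bundle. Its levels were 3.44, 3.17, 3.07 and 3.32 in P6 Kir2.1 pools and 3.91, 3.53, 3.96 and 4.04 in P6 control pools. They were 3.41, 3.03, 3.21 and 3.27 in P3 Kir2.1 pools and 2.65, 2.62, 2.53 and 2.68 in P3 control pools. The 2 control groups lay furthest apart, and the 2 Kir2.1 groups overlapped almost fully between them. In control cells Snap25 was 2.37-fold higher at P6 than at P3 (log2 difference 1.24, SE 0.19, 95% interval 0.83 to 1.65, adjusted p = 0.00431, limma). In Kir2.1 cells the difference between P6 and P3 was 0.02 (95% interval -0.39 to 0.43, adjusted p = 0.977).

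Against control cells of the same age, the mean Snap25 level of Kir2.1 cells was lower at P6 and higher at P3. The P6 difference was -0.61 (95% interval -1.02 to -0.20, adjusted p = 0.114, limma) and the P3 difference was 0.61 (95% interval 0.20 to 1.02, adjusted p = 0.558). At neither age did the Kir2.1 pools overlap the control pools. Of all features, 8.89% had groups apart at P6 and 6.8% at P3, whichever way they lay. The interaction, the P6 difference minus the P3 difference, was -1.23 (SE 0.27, 95% interval -1.80 to -0.65, adjusted p = 0.0975), and its call depends on the model of the spread: with a variance trend in limma its adjusted p was 0.00304, and that of the P6 difference was 0.0116. Because both comparisons rest on the same 4 groups as the age comparison, these values are not separate evidence.

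The Snap25 probe did not move alone. The root mean square (RMS) difference between log2 values centred on each probe's mean was used as a measure of likeness over the 16 arrays. Fgf23 (RMS difference 0.077), Mcidas (0.079) and Itgam (0.088) had the named patterns closest to that of Snap25, against a median of 0.878 over the 6453 genes compared. Within an RMS difference of 0.2, a value chosen after seeing the data, lay 45 other probes, among them those of 27 named genes. These include genes known from quite different cells, such as Fgf23 of bone, Itgam of microglia and other myeloid cells, and Lhx6 of forebrain interneurons. Others on the list were Pura, Slc8a3, Oprm1 and Pdcd4, and the 27 genes were not sorted by cell type. The 45 probes had a median difference of 1.34 between P6 and P3 in control cells (range 1.01 to 1.66, all 45 called), a median of -0.75 for Kir2.1 against control at P6 and of 0.58 at P3. They share every array with Snap25 and were chosen for their likeness to it over these arrays. Their differences therefore restate those of Snap25 and are not separate evidence. Of 6460 named genes above background on all arrays, 18.5% had at least 1 probe this close and 3.89% had at least as many as Snap25. Close company was common among bright probes: of the 353 genes with a mean level of 2 or more, 82.2% had at least 1 such probe and 31.7% at least as many as Snap25. Snap25 has a single probe here, and whether it reads only the Snap25 transcript was not tested.

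**Figure D2:**
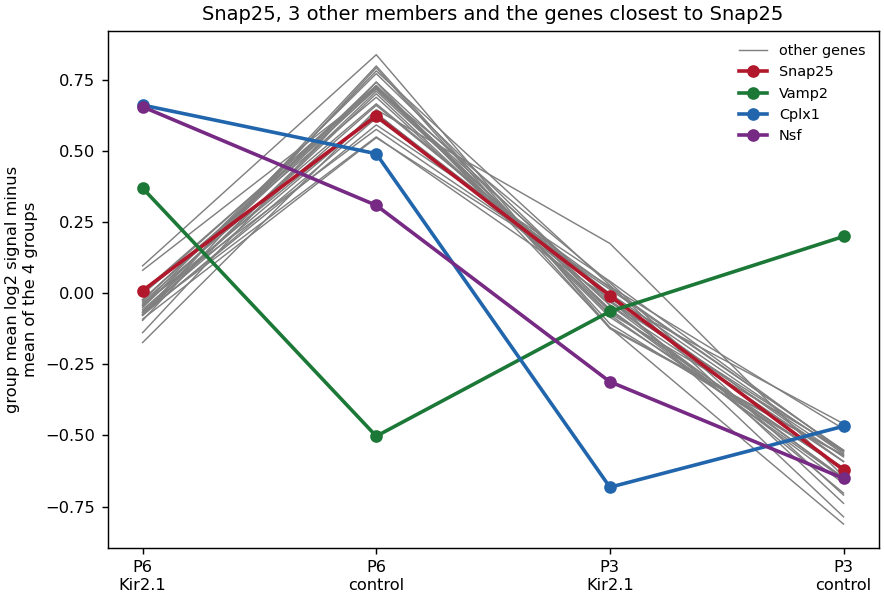
Group mean log2 signal minus the mean of the 4 group means (y axis) for Snap25, Vamp2, Cplx1 and Nsf and, in grey, for the 27 named genes within an RMS difference of 0.2 of Snap25 (x axis: the 4 groups; lines join the values of 1 gene and carry no order). The grey genes were chosen for closeness to Snap25, so its place within their bundle was fixed by that choice. The other 3 members lay beyond that RMS difference.

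Vamp2, the main synaptobrevin of forebrain vesicles, went another way. The P6 Kir2.1 pools had levels of 3.23, 3.40, 2.07 and 3.05, against 1.86, 2.64, 1.42 and 2.33 in P6 control pools. At P3 the levels were 2.66, 2.44, 2.35 and 2.56 in Kir2.1 pools and 2.57, 3.00, 2.52 and 2.97 in control pools. At P6, 3 of the 4 Kir2.1 pools lay above all control pools and pool 3 lay among them, while at P3 the groups overlapped. The difference at P6 was 0.87 (95% interval 0.18 to 1.57, adjusted p = 0.182, limma) and at P3 it was -0.26 (95% interval -0.96 to 0.43, adjusted p = 0.933), with an interaction of 1.14 (adjusted p = 0.385). Vamp2 was the member with a negative mean difference between ages in control cells (-0.70, 95% interval -1.40 to -0.01, adjusted p = 0.274). Its difference between ages was 0.43 in Kir2.1 cells (adjusted p = 0.578). With P6 control pools 2 and 4 alone, an alternative added after seeing the data, the P6 Kir2.1 difference was 0.45 (adjusted p = 0.590), the age difference in control cells -0.28 (adjusted p = 0.760) and the interaction 0.71 (adjusted p = 0.620). The named patterns closest to Vamp2 were those of Ndufa4 (RMS difference 0.272), Atp5md (0.305) and Atp5a1 (0.306), all 3 of which encode parts of the mitochondrial machinery for oxidative phosphorylation, and no probe lay within 0.2.

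Vamp1, the synaptobrevin that predominates in spinal cord and brainstem neurons, was dim and scattered. Its levels spanned -5.15 to -1.02 in P6 Kir2.1 pools, -3.77 to -0.72 in P6 control pools, -9.003 to -2.42 in P3 Kir2.1 pools and -6.96 to -2.07 in P3 control pools. The residual SD of Vamp1 was 2.18 on the log2 scale, against a median of 1.16 for the 500 features nearest in level. All 4 groups overlapped, and the intervals were wide: -4.07 to 2.17 around a Kir2.1 difference of -0.95 at P6, and -4.31 to 1.93 around -1.19 at P3. Differences of several fold in either direction were not detectable for this gene.

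Stx1a, the plasma membrane syntaxin, had small mean differences in all comparisons. Levels were -0.11, -0.30, 0.41 and -0.03 in P6 Kir2.1 pools and -1.19, 0.24, 0.79 and -0.59 in P6 control pools. They were -0.13, -0.15, 0.32 and -0.80 in P3 Kir2.1 pools and 0.07, -0.25, -0.81 and -1.01 in P3 control pools. Every pair of groups overlapped, and the P6 control pools were the most scattered. The Kir2.1 difference was 0.18 at P6 (95% interval -0.71 to 1.06) and 0.31 at P3 (-0.58 to 1.20), and the age difference was 0.18 in Kir2.1 cells and 0.31 in control cells. Adjusted p lay between 0.743 and 0.961 for these and the interaction (limma).

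**Figure D3:**
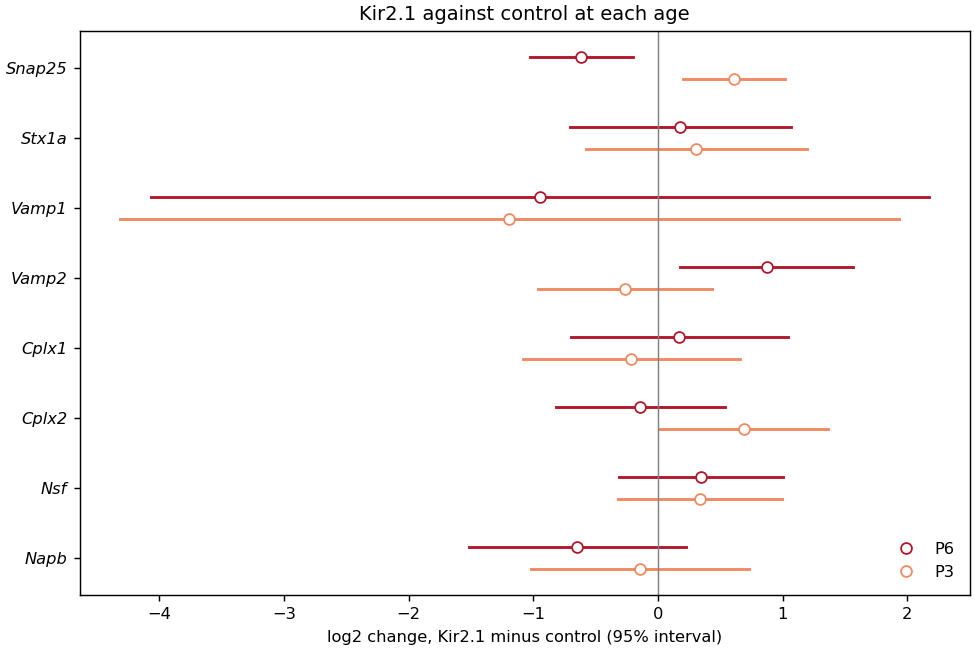
Log2 difference of Kir2.1 minus control cells (x axis) with its 95% interval for each gene (y axis), at P6 (dark red) and at P3 (orange). Open points did not pass an adjusted p of 0.05, which holds for all 16 values. Snap25 lies below 0 at P6 and above 0 at P3, and Vamp1 has the widest intervals.

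Complexin 1 (Cplx1), a clamp and helper of the fast release machinery, had its higher group means at P6 in both kinds of cell. Its levels were 3.20, 2.56, 1.94 and 2.62 in P6 Kir2.1 pools, against 0.78, 1.29, 1.24 and 1.64 in P3 Kir2.1 pools. Control pools had 2.83, 2.43, 1.22 and 3.16 at P6 and 1.61, 1.75, 0.86 and 1.59 at P3. In Kir2.1 cells every P6 pool lay above every P3 pool, and in control cells pool 3 at P6 lay among the P3 pools. The age difference was 1.34 in Kir2.1 cells (95% interval 0.47 to 2.21, adjusted p = 0.138, limma) and 0.96 in control cells (95% interval 0.09 to 1.83, adjusted p = 0.232). Their difference, the interaction, was 0.38 (95% interval -0.85 to 1.62, adjusted p = 0.864). Kir2.1 and control differed by 0.17 at P6 (95% interval -0.70 to 1.04) and by -0.21 at P3 (-1.09 to 0.66).

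Complexin 2 (Cplx2) had 4 probes, which did not all move the same way. The probe that stood for the gene had levels of 0.29, 1.74, 0.76 and 0.14 in P6 Kir2.1 pools and 0.49, 0.94, 1.13 and 0.93 in P6 control pools. At P3 its levels were 0.82, 0.85, 0.98 and 1.15 in Kir2.1 pools and 0.52, 0.17, -0.05 and 0.40 in control pools. The groups were apart at P3, as those of Snap25 were, which made 2 of 8 members with groups apart at that age (6.8% of all features), and they overlapped at P6. The Kir2.1 difference at P3 was 0.69 (95% interval 0.01 to 1.36, adjusted p = 0.758, limma). Probes 2 and 3 differed by 1.43 and 0.90 at P3, also with groups apart, while probe 4, the dimmest, differed by -0.58 with overlapping groups. At P6 the Kir2.1 differences of the 4 probes were -0.14, -0.85, -0.48 and -0.56, with adjusted p between 0.440 and 0.865 in a fit with every probe as a feature. The P6 pools of Kir2.1 cells were spread out, from -0.66 to 1.99 on probe 2, with pool 2 the highest on probes 1 to 3 and the lowest on probe 4. Between P6 and P3 in control cells the 4 probes differed by 0.61, 1.56, 1.00 and 0.64, probe 3 with groups apart. The pattern nearest to the first probe was that of Vash1 (RMS difference 0.100 for the gene's main probe), and 12 probes lay within 0.2, 2 of them of Vash1. Whether that probe reads only Cplx2 was not tested.

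**Figure D4:**
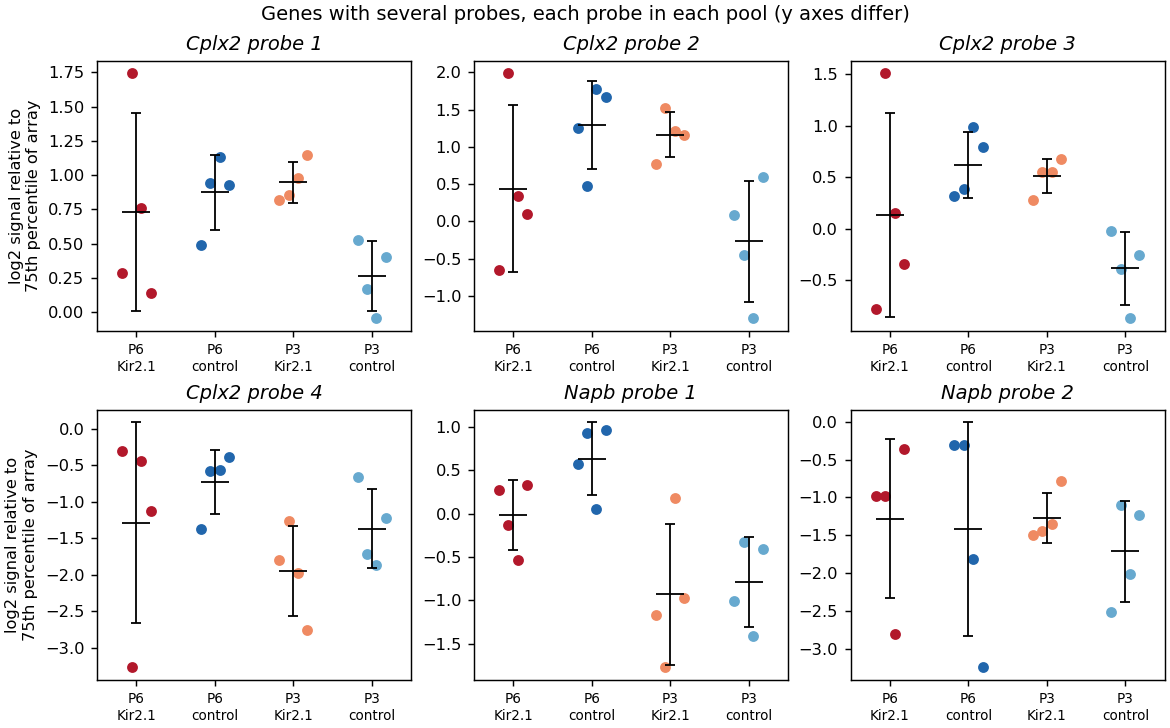
Log2 signal (y axis, separate scales) for each of the 4 Cplx2 and 2 Napb probes in the 4 pools of each group (x axis). Signal is relative to the array's 75th percentile over probes well above background on all arrays. Mean and SD are in black. On Cplx2 probes 1 to 3 all P3 Kir2.1 pools lie above all P3 control pools, and on probe 4 they do not.

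Nsf, the ATPase that takes spent SNARE bundles apart, had nearly equal age differences in both kinds of cell. Levels were 0.52, 0.12, -0.09 and 0.71 in P6 Kir2.1 pools, against -0.89, -0.49, -0.65 and -0.57 in P3 Kir2.1 pools. In control cells they lay between -0.15 and 0.13 at P6, and were -1.33, -1.19 and -1.44 in P3 pools 1 to 3 and close to 0 in P3 pool 4. The ages were apart in Kir2.1 cells, and in control cells P3 pool 4 reached into the P6 range. The age difference was 0.97 in Kir2.1 cells (95% interval 0.31 to 1.62, adjusted p = 0.155, limma) and 0.96 in control cells (95% interval 0.30 to 1.62, adjusted p = 0.116). Over the 16 fits that left out 1 pool, the difference in control cells ran from 0.81 to 1.29 (adjusted p from 0.0221 to 0.271, limma). The largest, and the only one that passed the test, was that without P3 control pool 4, the pool that reached into the P6 range. The interaction was 0.01 (95% interval -0.92 to 0.93), and Kir2.1 differed from control by 0.35 at P6 (95% interval -0.31 to 1.00) and by 0.34 at P3 (-0.32 to 1.00).

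Napb encodes beta-SNAP, the brain-enriched adaptor that seats NSF on the bundle. The levels of its main probe were 0.28, -0.13, -0.53 and 0.33 in P6 Kir2.1 pools and 0.57, 0.93, 0.06 and 0.97 in P6 control pools. At P3 they were -1.16, -1.77, 0.18 and -0.97 in Kir2.1 pools and -1.01, -0.32, -1.41 and -0.41 in control pools. Every P6 control pool lay above every P3 control pool, and in Kir2.1 cells P3 pool 3 lay within the P6 range. The age difference was 1.42 in control cells (95% interval 0.55 to 2.29, adjusted p = 0.0836, limma) and 0.92 in Kir2.1 cells (95% interval 0.05 to 1.79, adjusted p = 0.304). Its second probe, the dimmer one, differed by 0.29 and -0.01 in these comparisons (adjusted p = 0.865 and 0.996), with overlapping groups. Kir2.1 against control gave -0.65 at P6 (95% interval -1.52 to 0.23, adjusted p = 0.433) and -0.14 at P3 (-1.02 to 0.73, adjusted p = 0.979).

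**Figure D5:**
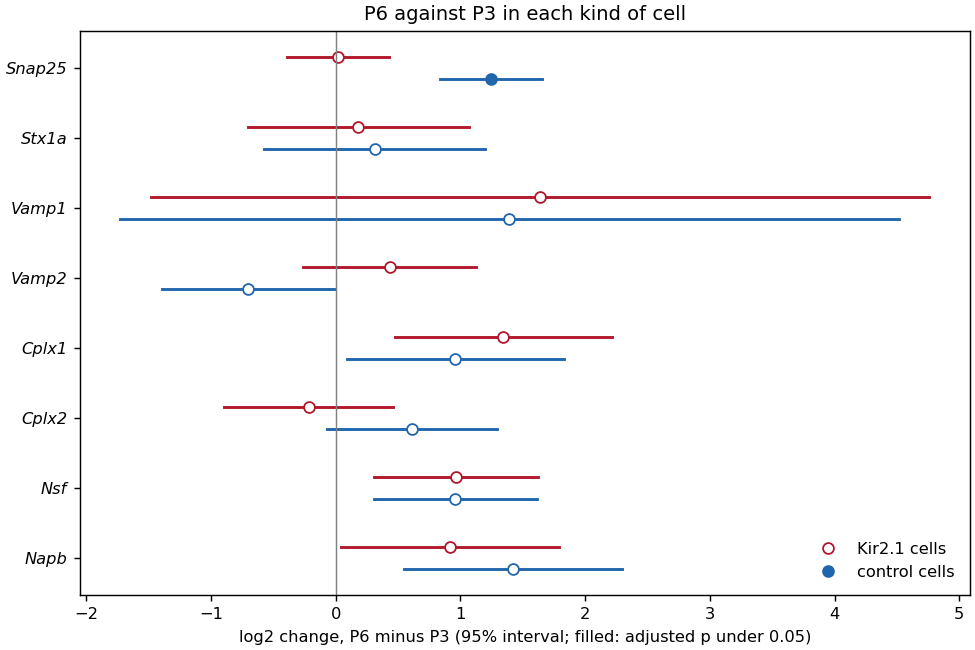
Log2 difference of P6 minus P3 (x axis) with its 95% interval for each gene (y axis), in Kir2.1 cells (red) and control cells (blue). Filled points passed an adjusted p of 0.05. Snap25 in control cells is the 1 filled point, and Vamp2 in control cells and Cplx2 in Kir2.1 cells lie below 0.

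Set side by side, 7 of the 8 members had positive mean differences between P6 and P3 in Kir2.1 cells, with Cplx2 (-0.22) the exception, and 7 of 8 in control cells, with Vamp2 the exception. The median over the members was 0.68 in Kir2.1 cells and 0.96 in control cells, against medians of -0.16 and -0.07 over all features. Groups were apart for 2 of 8 members in each, Cplx1 and Nsf in Kir2.1 cells and Snap25 and Napb in control cells, and 10.5% and 12.7% of all features had groups apart there. For Kir2.1 against control the members split evenly, 4 positive and 4 negative, at P6 and at P3. Their medians were 0.01 at P6 and 0.08 at P3, against -0.13 and -0.03 over all features. No 2 members lay within an RMS difference of 0.2 of each other over the 16 arrays. The most alike pair, Snap25 and Cplx2, had 0.496. The median over the 6453 genes compared was 0.878 for Snap25 and 0.885 for Cplx2, so this pair was closer than most. Next came Snap25 and Nsf (0.512) and Cplx1 and Nsf (0.516). Stx1a and Cplx1 were the least alike pair without Vamp1 (1.00), and every pair with Vamp1 exceeded 2.

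The wider vesicle fusion pathway was represented by 84 further genes, of which 71 could be tested: 29 other SNAREs, 12 Sec1/Munc18 proteins and syntaxin binders, 2 SNAP adaptors and 28 calcium sensors, priming factors and other regulators. For Kir2.1 against control at P6, 2 of the 71 passed, where 1.76% of all features did. Ykt6, a SNARE of Golgi and endosomal traffic, was higher (mean level -0.94 ± 0.54 in Kir2.1 cells and -4.57 ± 2.01 in control cells, SD, n = 4 each, difference 3.63, adjusted p = 0.0321, limma), and the control value rests on dim signals, 3 of 4 pools being above background. Its call was lost in 4 of the 16 fits that left out a pool, those without any 1 of the P6 Kir2.1 pools, and under 2 of 12 other settings (no filter on dim probes, and P6 arrays alone). Dnajc5, the vesicle chaperone that keeps SNAP-25 folded, was lower (3.00 ± 0.25 and 3.84 ± 0.16, difference -0.85, adjusted p = 0.0429), a call lost in 14 of those 16 fits and under 7 of 12 other settings, and its 2 dimmer probes gave -0.53 and -0.70 (adjusted p = 0.924 and 0.884). Next by p came Stx8, an endosomal SNARE, with a difference of 3.73 (adjusted p = 0.0677), its probe being above background in 2 of 4 P6 control pools.

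No gene of the pathway passed for Kir2.1 against control at P3. The lowest p there belonged to Snap23, the SNAP-25 relative of non-neuronal cells, with 0.58 (adjusted p = 0.586), Sec22c, with -3.38 (0.595), and Stxbp5l (tomosyn-2), with 2.97 (0.744), all from limma. Sec22c was above background on 1 of 4 P3 Kir2.1 pools, and the second probe of Stxbp5l gave 0.22. For the mean of both ages none passed either, the lowest p being those of Ykt6 (1.88, adjusted p = 0.127), Syt16 (-1.60, 0.243) and Rab3c (-0.54, 0.267).

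With age in control cells 4 of the 71 pathway genes passed, where 2.59% of all features did. Higher at P6 than at P3 were Snap23 (2.98 ± 0.22 against 1.604 ± 0.05, difference 1.38, adjusted p = 0.00313), Syt1, the calcium sensor of fast release (2.39 ± 0.27 against 1.25 ± 0.25, difference 1.14, adjusted p = 0.0174), and Dnajc5 (3.84 ± 0.16 against 3.05 ± 0.14, difference 0.80, adjusted p = 0.045), while Ykt6 was lower (-4.57 ± 2.01 against -0.41 ± 0.24, difference -4.16, adjusted p = 0.0112), with SDs over 4 pools and p from limma. Snap23 and Ykt6 kept their calls in each of the 16 fits that left out a pool, Syt1 lost its call in 3 of them (without P3 control pool 1 or 3, or P6 control pool 4) and under 2 of 11 other settings, and Dnajc5 in 14 and under 7 of 11 other settings. The other 2 probes of Dnajc5 gave -1.29 and -0.21 (adjusted p = 0.787 and 0.972). The Snap23 probe is one of the 45 close to Snap25 (RMS difference 0.101) and had 46 probes within 0.2, Dnajc5 had 33, and Syt1 and Ykt6 had 0. In Kir2.1 cells none of the 71 passed with age; the lowest p were those of Cplx3, a complexin of ribbon synapses (2.94, adjusted p = 0.0975), Napg, the gamma-SNAP gene (1.83, 0.199), and Cadps (0.80, 0.2). None passed for the interaction, where Snap23 had -1.29 (adjusted p = 0.0919), Cplx3 3.99 (0.18) and Dnajc5 -0.99 (0.182). The Cplx3 probe was above background in 4 of 4 P6 Kir2.1 pools, 1 of 4 P6 control pools, 2 of 4 P3 Kir2.1 pools and 3 of 4 P3 control pools, so its differences rest on signals near background. Medians over the 71 genes were 0.01 in Kir2.1 cells and 0.06 in control cells for age, and -0.01 at P6 and -0.13 at P3 for Kir2.1 against control.

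Markers of other cells moved with some of these comparisons. Signals were summed in units of the array's 75th percentile over probes well above background on all arrays. The summed signal of 12 tested interneuron genes was 1.26 to 3.22 in P6 Kir2.1 pools and 3.72 to 9.45 in P6 control pools. It was 0.965 to 1.43 in P3 Kir2.1 pools and 0.813 to 1.18 in P3 control pools. By mean log2 level at P3, Gad1 (2.76), Gad2 (3.77), Meis2 (2.27), Sp8 (0.99) and Dlx1 (0.24) were higher in Kir2.1 cells. Slc32a1, Dlx2, Dlx5, Sp9, Th, Penk and Synpr were lower. Gad1 and Gad2 were each above background in 1 of 4 P3 control pools. Gad1, Gad2, Meis2 and Dlx1 had their highest mean in P6 control and their lowest in P3 control cells, as Snap25 had. The other tested interneuron genes did not. Of the 14 genes on that list, 12 were above background in some P6 control pool, among them Gad1, Gad2 and Slc32a1 in all 4, and Dlx6 and Calb2 in none. This count does not set P6 control pools apart. The number of listed genes above background in no pool was also 2 in P6 Kir2.1 and in P3 control cells, and 4 in P3 Kir2.1 cells. The sum of the 5 microglial genes tested, of 8 listed, was 0.191 to 0.590 in P6 Kir2.1 pools and 0.419 to 1.93 in P6 control pools, with the 2 highest values in pools 1 and 3. The sum of the 5 tested astrocyte and radial glia genes was 3.01 to 13.2 in P6 Kir2.1 pools, 8.97 to 12.2 in P6 control pools, 2.83 to 7.87 in P3 Kir2.1 pools and 1.13 to 3.06 in P3 control pools. The sum of the 7 mitral and tufted cell genes tested was itself higher in P6 Kir2.1 pools (16.04 to 24.0) than in P6 control pools (8.88 to 15.1), and was 11.3 to 15.6 in P3 Kir2.1 pools and 12.5 to 18.05 in P3 control pools. These sums are linear, so the brightest gene weighs most. Cdhr1, by which cells were chosen, had mean log2 levels of 3.75 in P6 Kir2.1 and 3.08 in P6 control pools. Tbr1 alone of the mitral and tufted genes tested was lower in P6 Kir2.1 pools (-0.18). Fabp7 led the astrocyte sum (2.50 and 3.20), the next gene, Slc1a3, having -4.76 and -2.12. Vascular and blood genes summed to at most 3.80 in any pool, reached in P6 Kir2.1 cells, and to at most 1.37 in P6 control pools. Of those tested, Cldn5 (3.95), Esam (4.86) and Hbb-bs (0.60) had higher mean log2 levels in P6 Kir2.1 than in P6 control cells. Hba-a1 (-2.59), Kdr (-0.44) and Pecam1 (-0.01) had lower ones. Olfactory sensory neuron genes summed to at most 0.751 in any pool. The sum of the 7 oligodendrocyte lineage genes reached 0.990 in P6 Kir2.1 pools and 5.51 in P6 control pool 3. Interneurons express SNARE genes too, and the part of these marker shifts in the members' values was not tested. The fit with P6 control pools 2 and 4 alone, added after seeing the data, leaves out the 2 pools with the highest microglial sums. Every P6 control pool had a higher interneuron sum than any P6 Kir2.1 pool. This fit therefore keeps the interneuron signal and cannot show its part in the members' values. In it the Snap25 difference between P6 and P3 in control cells was 1.17 and passed the test (adjusted p = 0.0377, limma). In the same fit Snap25 differed by -0.54 between Kir2.1 and control at P6 (adjusted p = 0.300), and the interaction was -1.15 (adjusted p = 0.186). Some other members moved further: beside Vamp2, the Cplx1 difference at P6 was -0.21, against 0.17 with all pools, and that of Napb was -0.96, against -0.65.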

How the data were processed

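Transcripts were measured on 16 one-colour (Cy3) Agilent arrays. Per the file headers, spots were read with protocol GE1_107_Sep09; the submitters' processing notes name Agilent Feature Extraction 10.7.3.1. The authors' deposited scanner tables give each spot's processed, background-subtracted intensity on a linear scale. The authors' deposited value table holds a ratio, that signal over the array's 75th percentile of gene spots, linear and not centred on genes: its ratio to the scanner values so scaled was 0.999 to 1.00, and its medians per array were 0.0395 to 0.13. No part of its scale, centring or direction stayed unknown. No gene spot was saturated, and the highest correlation between arrays was 0.874.

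Control and outlier spots were left out and a probe's remaining spots averaged. Of 55681 gene probes, 83 had no spot left on at least 1 array and were dropped. Log2 of the deposited intensity was scaled by array to the 75th percentile of those 12103 probes that were well above background on every array. Probes well above background on at least 4 of 16 arrays were tested, the brightest probe standing for its gene: 21070 features, 12035 named. Symbols came from RefSeq accessions (GRCm38.p6), which named 26546 probes. limma 3.58.1 (lmFit, eBayes, R 4.3.3) fitted all 16 arrays with 4 group means (residual df 12, prior df 1.64, prior SD 0.638), Benjamini-Hochberg adjusted over all features, threshold 0.05. Intervals are 95% and cover the spread between pools; the number of arrays limits precision. The fit was tested on simulated data.

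All 8 members were named in every comparison, pathway genes where they passed or else the 3 with the lowest p, and the 3 genes most like each member. Members and lists, including markers of mitral and tufted cells, interneurons, astrocytes, oligodendrocytes, microglia, vascular and blood cells and olfactory sensory neurons, were chosen with earlier results of these data known. Alternatives were other scalings, normexp, the deposited table, other filters and probe rules, a variance trend, single ages, a replicate block and leaving out pools. Since the tables used hold no mean spot signal, normexp used the median spot signal (offset 50). Replicate numbers did not pair the pools: 24 correlations of same-numbered pools' deviations ran from -0.0282 to 0.0308, 0 of them over 0.1.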

Additional observations from a re-analysis of the deposited data

How the results depend on the processing

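The Snap25 call for P6 against P3 in control cells held in every alternative run: differences 1.16 to 1.41 over 11 settings and 1.18 to 1.35 over the fits leaving out 1 of 16 pools, adjusted p from 3.46e-05 to 0.0377 (limma). The count of members called there was 1 to 2 without single pools (Nsf joined without P3 control pool 4, adjusted p = 0.0221, and Napb without P3 Kir2.1 pool 3, 0.0475) and 2 under normexp (Napb, 0.0459). With a variance trend 1 member, Snap25, was called at P6 and 1, again Snap25, for the interaction. That setting also called more features over the whole array. It called 667 at P6, against 370 in the main fit, and more for the interaction than any other alternative. Counts of members called were otherwise equal in all alternatives. With the replicate block, under numbers that did not pair the pools, counts of members were the same (1 for age in control cells, adjusted p of Snap25 0.0148), and features called over the array dropped to 326, against 545 without it. Over all alternatives, features called for Kir2.1 ranged from 20 (P6 arrays alone) to 711 (normexp) at P6, against 370. They ranged from 0 to 18 (P3 arrays alone) at P3, against 2, and from 70 to 365 for the mean of both ages, against 150. For age they ranged from 29 to 285 in Kir2.1 cells, against 185, and from 235 to 920 in control cells, against 545. For the interaction the variance trend called the most features, and the other alternatives called from 9 to 46 (normexp), against 19. The shares of all features set beside the members' counts therefore move with the setting. Signs turned for 14 of 48 member differences, none of them called under any alternative. With scaling over all probes, and in the deposited table, these were Cplx2 at P6 (0.072 and 0.062), the means over ages of Snap25 (0.13 and 0.12) and Cplx1 (0.11 and 0.10) and the Stx1a interaction (0.039 and 0.029). Under normexp they were Snap25 with age in Kir2.1 cells (-0.033) and the Vamp1 interaction (-0.37), and with probe means Napb at P3 (0.15). With P6 control pools 2 and 4 only they were Cplx1 at P6 (-0.21), the mean of Snap25 (0.037) and the interactions of Vamp1 (-0.080) and Nsf (-0.029). Leaving out single pools gave -2.24 to 0.15 for Vamp1 and -0.52 to 0.14 for Napb at P3, and -0.16 to 0.50 for Stx1a, -0.22 to 0.42 for Cplx1 and -0.48 to 0.056 for Cplx2 at P6. It gave -0.056 to 0.033 for Snap25 and -0.22 to 0.10 for Cplx1 in the mean over ages, -0.049 to 0.078 for Snap25 and -0.022 to 0.35 for Stx1a with age in Kir2.1 cells, and -0.014 to 0.65 for Stx1a with age in control cells. For the interaction it gave -0.47 to 0.20 for Stx1a, -1.09 to 1.30 for Vamp1, -0.010 to 0.63 for Cplx1 and -0.32 to 0.16 for Nsf. The causes were not tested. Scaling over all probes put the median Kir2.1 difference of all features at P6 at 0.09, against -0.13 in the main scaling. Pathway counts ranged over 0 to 4 at P6 and 2 to 6 for age in control cells. From 0 in the main fit they reached 2 for the interaction (Dnajc5 and Snap23). They reached 1 for the mean of both ages (Ykt6 or Dnajc5) and 1 for age in Kir2.1 cells (Cplx3). Dim probes such as that of Vamp1 limit what could be detected.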
